A study of Mus musculus with 6 samples.

Results

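Voltage-gated sodium channel genes encode the membrane proteins that open on depolarisation and carry the rising phase of the action potential. The 8 genes described here were taken by symbol and comprised 5 alpha subunit genes (Scn1a, Scn2a, Scn3a, Scn8a and Scn9a) and 3 beta subunit genes (Scn2b, Scn3b and Scn4b) out of 53801 genes in the table of read counts. RNA-seq was performed on polyadenylated RNA from the whole brain of 6 C57BL/6 mouse embryos at stage E16.5. Of these, 3 were Bahd1-KO (Bahd1-/-) and 3 were Bahd1-WT (Bahd1+/+), each library coming from a separate embryo, and the null line was kept by crossing Bahd1+/- parents. BAHD1 is a chromatin protein that takes part in gene silencing, and the null allele was present in the germline, so every cell of a Bahd1-KO embryo lacked it. The embryos were compared to learn whether brain transcripts were altered before birth when BAHD1 was missing. The question put to the sodium channel genes was how Scn3a, the fetal alpha subunit, stood against the subunits that take over later, in each embryo and between genotypes.

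An alpha subunit is a single large protein that forms the pore and senses voltage, whereas a beta subunit is a small protein with 1 membrane span and an immunoglobulin fold that alters the gating and the cell-surface level of the alpha subunit. In the rodent brain, Scn3a is known as the alpha gene of the fetal period and declines around birth. Scn2a is prominent in immature axons, and Scn1a and Scn8a become the main alpha genes of mature inhibitory neurons and of nodes of Ranvier, respectively.

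The alpha genes are close paralogues. Scn3a, Scn2a, Scn1a and Scn9a lie together on chromosome 2 within 1.18 Mb. In the GRCm38 assembly, Scn3a spans chr2:65457118-65567627 on the minus strand and Scn2a chr2:65620771-65767447 on the plus strand. Scn1a spans chr2:66270778-66440840 and Scn9a chr2:66480080-66634962, both on the minus strand. The cluster lies on the same chromosome as Bahd1, at a distance of 52.3 to 53.3 Mb. Scn8a stands alone at chr15:100869858-101045938, on the plus strand. Most of each transcript was distinct all the same. Of all 65-base words of the annotated exons, 2.65% in Scn1a, 3.20% in Scn9a, 3.91% in Scn2a and 4.79% in Scn3a occurred in another gene as well. None did in Scn8a or in the 3 beta genes. The exons of Scn9a also shared 180 bp with Gm13629, a gene annotated on the opposite strand, and the counting was strand-specific.

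The beta genes lie on chromosome 9. Scn3b spans chr9:40269217-40291618, Scn2b chr9:45117782-45130070 and Scn4b chr9:45138395-45154152, all on the plus strand. Scn2b and Scn4b are direct neighbours, separated by 8.325 kb. As both transcripts were highest in the same embryo, the promoters of both are shown, from 250 bases before to 50 bases after the RefSeq start in GRCm38.p6, 5′ to 3′ on the plus strand, with each CG dinucleotide in capitals. Scn2b is at chr9:45117626-45117925 and Scn4b at chr9:45138374-45138673.
Scn2b: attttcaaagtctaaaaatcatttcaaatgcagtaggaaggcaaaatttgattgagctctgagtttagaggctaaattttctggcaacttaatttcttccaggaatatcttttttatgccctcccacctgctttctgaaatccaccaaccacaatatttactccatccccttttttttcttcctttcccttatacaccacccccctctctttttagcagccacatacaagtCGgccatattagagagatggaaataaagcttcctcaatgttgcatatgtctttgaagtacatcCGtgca
Scn4b: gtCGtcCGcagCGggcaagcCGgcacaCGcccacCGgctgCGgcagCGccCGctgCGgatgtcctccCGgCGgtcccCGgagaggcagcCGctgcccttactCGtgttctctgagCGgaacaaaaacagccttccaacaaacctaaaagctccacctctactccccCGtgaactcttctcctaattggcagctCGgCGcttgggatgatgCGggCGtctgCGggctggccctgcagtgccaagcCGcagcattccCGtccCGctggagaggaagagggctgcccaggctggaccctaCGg
The Scn2b promoter had a GC content of 38.3% and 2 CG dinucleotides, and 85.9% of 32851 mouse promoters of this length held at least as many. The Scn4b promoter had a GC content of 66.3% and 26 CG dinucleotides, a number reached by 16.9% of promoters. The median promoter had a GC content of 52.7% and 7 CG dinucleotides. The neighbours thus differed widely in base composition at their starts, and this is a description of sequence only.

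The 6 libraries held 61724000 to 91782802 counts assigned to genes. Bahd1 was at 0.0305, 0.118 and 0.111 counts per 1000000 (CPM) in Bahd1-KO replicates 1, 2 and 3, and at 20.6, 35.2 and 34.4 CPM in Bahd1-WT replicates 1, 2 and 3, as the labels state. All levels in CPM were scaled by the trimmed mean of M values (TMM). The library of Bahd1-KO replicate 3 stood apart from the other 5. Genes of ribosomal, mitochondrial and small RNAs took 49.4% of its counts (95% Wilson interval 49.346 to 49.368%, counting error only), against 3.11 to 6.28% elsewhere. In this library all 10 markers of newborn neurons were the lowest of the 6 embryos, and their summed level was 640 CPM against 12082 to 13356 CPM. Of 14 markers of mature neurons, 12 were the highest of the 6, and their sum was 1601 CPM against 399 to 599 CPM. The 7 lung markers summed to 1218 CPM against 0.763 to 12.6 CPM, and the 9 skeletal muscle markers to 145 CPM against 4.38 to 14.0 CPM. The 6 heart markers summed to 63.9 CPM against 0.870 to 1.77 CPM, and the 10 hindbrain and spinal cord markers, 9 of them highest there, to 117 CPM against 0.412 to 18.0 CPM. Among 8 glial markers 3 were highest and 2 lowest in this library, with Gfap at 14.3 and Aqp4 at 5.88 times the mean of the other 5. The median log2 ratio of the glial list to that mean was 0.25. Among 9 markers of dividing progenitors 4 were highest, up to 3.33 times that mean for Mki67. The 5 lowest went down to 0.0649 times for Eomes and 0.0808 times for Hes5, and the median log2 ratio of the 9 was −0.62. The label of E16.5 brain therefore matched the newborn neuron markers in 5 libraries and was at odds with them in this one. The genotype differences that follow are given with and without Bahd1-KO replicate 3, and the part that its composition plays in them was not tested. In bulk tissue, fewer cells of a type and less RNA per cell cannot be told apart.

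Scn3a and Scn2a were the leading alpha genes in all embryos but Bahd1-KO replicate 3, where Scn3a was low and Scn2a, Scn1a and Scn8a led. To compare levels between genes, CPM was divided by the exon length of each gene in kb. On that scale Scn3a stood at 15.6 ± 3.06 CPM per kb (SD, n = 5 embryos other than Bahd1-KO replicate 3) and Scn2a at 14.8 ± 3.98. Scn3a exceeded Scn2a in 4 of these 5 embryos, and their ranges overlapped, so the order of this pair was not separated by the spread among embryos. Scn8a followed at 5.29 ± 0.712 CPM per kb and was below Scn2a in 5 of 5 embryos without overlap of the ranges. Next came Scn1a at 3.73 ± 0.992 and Scn9a at 3.53 ± 1.00 CPM per kb. Scn8a was above Scn1a, and Scn1a above Scn9a, within each of the 5 embryos, although the ranges of both pairs overlapped. Close pairs depended on the gene length used. With the length of the longest transcript, Scn2a exceeded Scn3a in 4 of 5 embryos, and with the coding length Scn9a exceeded Scn1a in 4 of 5. Both lengths were applied to this order of genes after the data were seen.

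**Figure D1:**
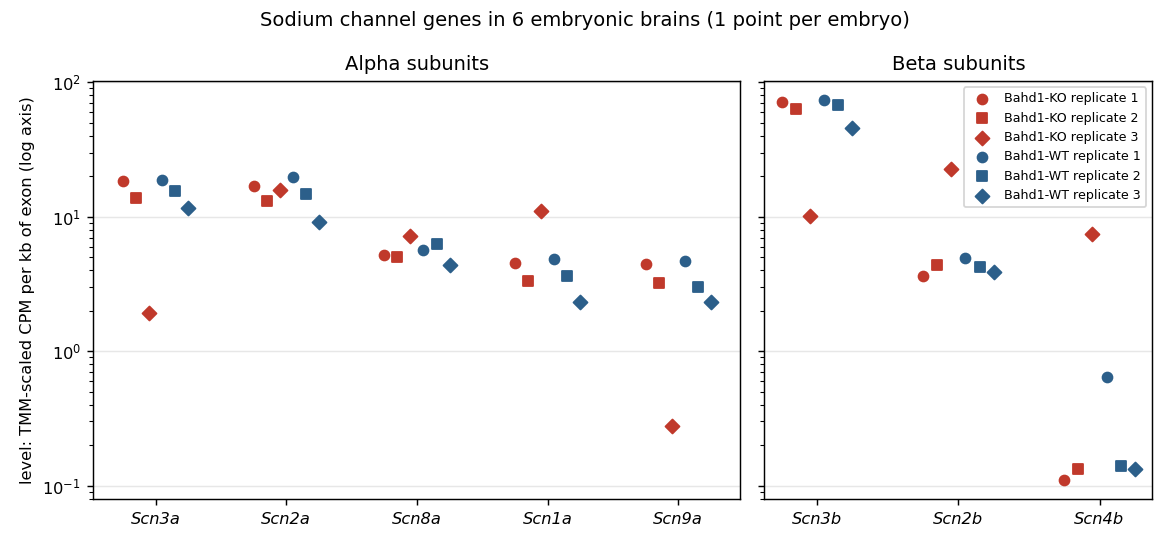
Level of the 8 sodium channel genes in each of 6 embryos, in TMM-scaled CPM per kb of exon on a log axis, with alpha genes at left and beta genes at right, 1 point per embryo, red for Bahd1-KO and blue for Bahd1-WT. Bahd1-KO replicate 3 (red diamonds) lies apart for Scn3a at 1.92, Scn9a at 0.280 and Scn3b at 10.1 CPM per kb, below all other embryos, and above them for Scn1a, Scn2b and Scn4b.

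Scn3a, the fetal alpha subunit, was covered by 15133, 14419 and 1293 reads in replicates 1, 2 and 3 of Bahd1-KO and by 22309, 17073 and 14652 reads in those of Bahd1-WT. Its levels were 231, 171 and 24.0 CPM in Bahd1-KO and 233, 194 and 145 CPM in Bahd1-WT. Bahd1-KO replicate 3 was thus far below the other 5 embryos, at 12.3% of their mean, while Bahd1-KO replicates 1 and 2 lay within the Bahd1-WT range. The genotype means were 142 ± 106 CPM in Bahd1-KO and 191 ± 44.1 CPM in Bahd1-WT (SD, n = 3). The log2 fold change of Bahd1-KO over Bahd1-WT was −0.43 ± 0.700 (SE) with an adjusted p of 0.841 in edgeR, and it was 0.06 ± 0.251 without Bahd1-KO replicate 3.

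Scn2a encodes the alpha subunit found along immature axons. Its levels were 217, 166 and 200.3 CPM in Bahd1-KO and 250.4, 188 and 117 CPM in Bahd1-WT. Bahd1-KO replicate 3 was in mid-range here, the lowest embryo being Bahd1-WT replicate 3, and the genotypes overlapped. The log2 fold change was 0.07 ± 0.321 (SE, edgeR adjusted p = 0.944), and 0.03 ± 0.316 without Bahd1-KO replicate 3, turning to −0.11 when libraries were scaled to total counts. Scn8a, the alpha subunit of mature axon initial segments and nodes of Ranvier, was at 81.8, 79.0 and 114 CPM in Bahd1-KO and at 89.2, 98.6 and 68.7 CPM in Bahd1-WT. It was highest in Bahd1-KO replicate 3, at 1.37 times the mean of the other 5, and the other Bahd1-KO embryos lay within the Bahd1-WT range. Its log2 fold change was 0.10 ± 0.263 (SE, edgeR adjusted p = 0.898), and −0.10 ± 0.219 without Bahd1-KO replicate 3. Scaling to total counts also turned it negative, to −0.13. Of the 8 genes, Scn2a and Scn8a were the nearest in Bahd1-KO replicate 3 to the mean of the other 5.

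Scn1a, whose loss in humans and mice causes severe epilepsy through inhibitory neurons, was at 50.4, 37.4 and 122 CPM in Bahd1-KO and at 53.9, 40.4 and 26.1 CPM in Bahd1-WT. Bahd1-KO replicate 3 held 2.93 times the mean level of the other 5 embryos and was the highest, whereas Bahd1-KO replicates 1 and 2 fell among the Bahd1-WT embryos. Between genotypes the log2 fold change was 0.80 ± 0.497 (SE, edgeR adjusted p = 0.696), and 0.11 ± 0.319 without that embryo.

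Scn9a is best known from pain-sensing neurons of the peripheral ganglia and is expressed in parts of the brain too. It was at 56.4, 41.1 and 3.58 CPM in Bahd1-KO and at 60.1, 38.4 and 29.5 CPM in Bahd1-WT. Bahd1-KO replicate 3 was lowest at 7.93% of the mean of the other 5, and the remaining Bahd1-KO embryos were inside the Bahd1-WT range. The log2 fold change was −0.34 ± 0.825 (SE, edgeR adjusted p = 0.893), and 0.17 ± 0.321 without Bahd1-KO replicate 3. Of 9 markers of peripheral sensory neurons, Mrgprd had no count in any library. The markers summed to 44.2 to 59.9 CPM in the other 5 embryos and to 7.28 CPM in Bahd1-KO replicate 3, most of it from Pou4f1 and Isl1, which brain neurons also express. Prph, Avil, P2rx3, Calca and Trpv1 were each at or below 3.06 CPM in every embryo.

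As shares of the summed level of the 5 alpha genes per kb, these values gave a nearly constant make-up in 5 embryos. Scn3a held 37.3, 35.7, 34.9, 36.0 and 39.0% of the sum in Bahd1-KO replicates 1 and 2 and Bahd1-WT replicates 1, 2 and 3. Scn2a held 30.8 to 36.7%, Scn8a 10.4 to 14.6%, Scn1a 7.84 to 9.10% and Scn9a 6.96 to 8.88%. In Bahd1-KO replicate 3 the share of Scn3a was 5.32%, while Scn2a held 43.5%, Scn1a 30.3%, Scn8a 20.1% and Scn9a 0.775%. The mean share of Scn3a was 36.6 ± 2.15% in Bahd1-WT and 26.1 ± 18.0% in Bahd1-KO (SD, n = 3), or 36.5 ± 1.10% over Bahd1-KO replicates 1 and 2. The summed alpha level itself was 36.1 CPM per kb in Bahd1-KO replicate 3, within the 29.8 to 53.6 CPM per kb of the other embryos, so the proportions of the genes differed more than their total.

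**Figure D2:**
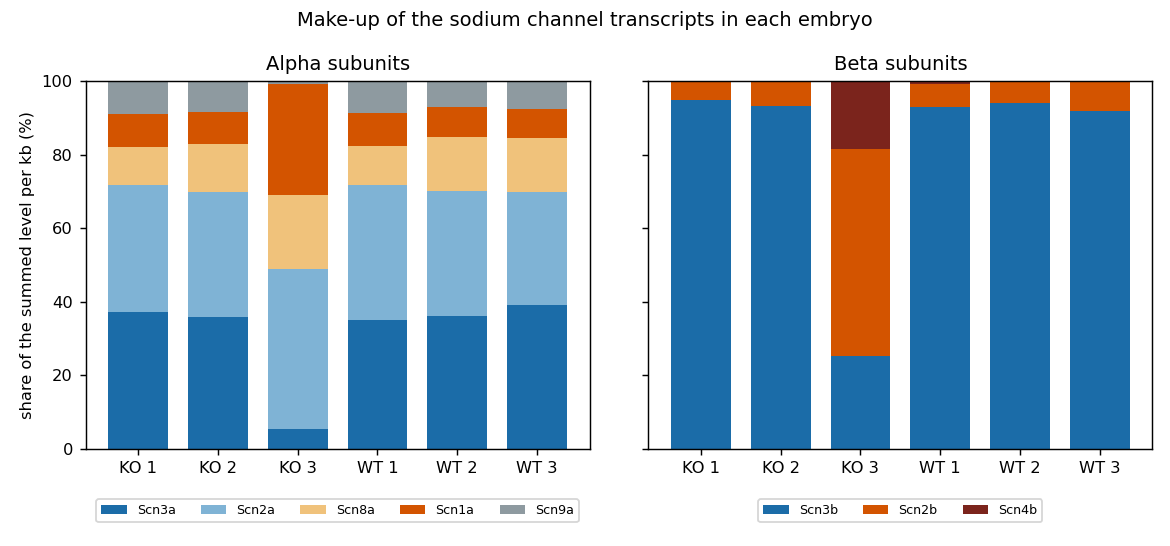
Share of each gene in the summed level per kb (vertical axis, %), for alpha genes at left and beta genes at right, 1 stacked bar per embryo. Scn3a takes 34.9 to 39.0% of the alpha sum and Scn3b 91.95 to 94.96% of the beta sum in 5 embryos, but 5.32% and 25.1% in Bahd1-KO replicate 3.

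Ratios of fetal to later subunits gave the same picture within each library, where scaling between libraries has no influence. Per kb, Scn3a stood at 3.87 to 4.98 times the level of Scn1a in the 5 other embryos, and at 0.176 times in Bahd1-KO replicate 3, where Scn1a was 5.69 times Scn3a. The ratio of Scn3a to Scn2a was 0.951 to 1.27 in those 5 and 0.122 in Bahd1-KO replicate 3. For Scn3a to Scn8a it was 2.48 to 3.57 against 0.265. The ratio of Scn3a to Scn9a, in contrast, was 3.97 to 5.17 in the 5 embryos and 6.87 in Bahd1-KO replicate 3, as both genes were low there. The ratios of Bahd1-KO replicates 1 and 2 to Scn1a, at 4.10 and 4.08, lay among the Bahd1-WT ratios of 3.87, 4.29 and 4.98. The ratios to Scn2a did likewise, at 1.09 and 1.05 beside Bahd1-WT ratios of 0.951, 1.05 and 1.27. Those to Scn9a were also among the Bahd1-WT ratios. For Scn3a to Scn8a, Bahd1-KO replicate 1 was above every Bahd1-WT embryo, at 3.57 against 3.31, 2.48 and 2.67. Bahd1-KO replicate 2 lay among them at 2.73. Genotype differences in these ratios were not tested.

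Among the beta genes, Scn3b was far ahead in 5 embryos and was replaced at the top by Scn2b in Bahd1-KO replicate 3. Per kb, Scn3b stood at 64.1 ± 11.0 CPM per kb, Scn2b at 4.21 ± 0.495 and Scn4b at 0.232 ± 0.229 (SD, n = 5 embryos other than Bahd1-KO replicate 3). The 3 ranges did not overlap, and the order held in each of the 5 embryos.

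Scn3b, a beta subunit bound to the alpha subunit without a covalent link, was covered by 25322, 28980 and 2990 reads in Bahd1-KO and by 38603, 32463 and 25247 reads in Bahd1-WT. This gave 387, 343 and 55.4 CPM in Bahd1-KO and 403, 368 and 249.97 CPM in Bahd1-WT. Bahd1-KO replicate 3 was lowest, at 15.8% of the mean of the other 5, whereas the other Bahd1-KO embryos were within the Bahd1-WT range. Its log2 fold change was −0.38 ± 0.642 (SE, edgeR adjusted p = 0.845), and 0.08 ± 0.241 without that embryo.

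Scn2b, a beta subunit linked to the alpha subunit by a disulfide bond, was at 17.0, 20.5 and 106 CPM in Bahd1-KO and at 22.9, 19.6 and 18.0 CPM in Bahd1-WT. Apart from Bahd1-KO replicate 3, at 5.41 times the mean of the others, it varied little, with a coefficient of variation of 11.8% over 5 embryos. The log2 fold change was 1.25 ± 0.695 (SE, edgeR adjusted p = 0.696), and −0.12 ± 0.238 without Bahd1-KO replicate 3.

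Scn4b encodes the beta subunit associated with resurgent sodium current in fast-firing neurons such as Purkinje cells. It was covered by 36, 56 and 2012 reads in Bahd1-KO and by 306, 62 and 67 reads in Bahd1-WT, which corresponded to 0.549, 0.663 and 37.3 CPM and to 3.20, 0.703 and 0.663 CPM. The gene was below 1 CPM in 4 embryos, was 5.82 times the lowest embryo in Bahd1-WT replicate 1, and was 32.3 times the mean of the other 5 in Bahd1-KO replicate 3. Over all embryos the log2 fold change was 3.07 ± 1.65 (SE, edgeR adjusted p = 0.696). Without Bahd1-KO replicate 3 it was −1.33 ± 0.725 with an adjusted p of 0.981 in edgeR, and Bahd1-WT replicate 1 was then the highest embryo. Bahd1-KO replicates 1 and 2 were then below every Bahd1-WT embryo. Replicate 2 was barely so, at 0.6631 CPM against 0.6634 CPM in Bahd1-WT replicate 3.

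Within the summed beta level per kb, Scn3b made up 91.95 to 94.96% in the 5 embryos, Scn2b 4.90 to 7.78% and Scn4b 0.148 to 0.808%. In Bahd1-KO replicate 3 the shares were 25.1% for Scn3b, 56.4% for Scn2b and 18.5% for Scn4b. The ratio of Scn3b to Scn2b was 11.8 to 19.4 in the 5 embryos and 0.445 in Bahd1-KO replicate 3. The highest, 19.4, was that of Bahd1-KO replicate 1, above the Bahd1-WT ratios of 14.99, 16.04 and 11.8. Bahd1-KO replicate 2 lay among these at 14.27, and the genotype difference in this ratio was not tested. The summed beta level was 40.4 CPM per kb in Bahd1-KO replicate 3 and 49.8 to 79.4 CPM per kb in the others. Unlike the alpha sum, it was the lowest of the 6.

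None of the 8 genes was called different between Bahd1-KO and Bahd1-WT by the edgeR quasi-likelihood test over 24739 genes. All 8 passed the count minimum for testing. At an adjusted p under 0.05, 0 of 8 were called, against 0.00404% of all genes tested, which was Bahd1 alone, and limma voom called 0 of the 8. In the edgeR fit Bahd1 had a log2 fold change of −8.40 and an adjusted p of only 0.046. The absence of a call therefore says little about smaller differences. DESeq2 called 0 of the 7 for which it gave an adjusted p, as it gave none for Scn4b. At an unadjusted p under 0.05, 0 of 8 passed, against a background of 4.67%. The levels of the genotypes overlapped for all 8, and they did not overlap for 6.71% of genes tested. Without Bahd1-KO replicate 3, 0 of 8 were called at the adjusted threshold (background 0.0171%) and 0 of 8 at the unadjusted one (background 1.48%). Some alternative fits had members at an unadjusted p under 0.05. For these the number of all genes passing is given, not their share of genes tested. The counts of members are therefore not read as an excess or a lack. In edgeR these were 2 without Bahd1-KO replicate 1 (beside 2451 of all genes) and 1 without Bahd1-KO replicate 2 (beside 4878). Without Bahd1-KO replicate 3, DESeq2 had 1 (beside 169), and edgeR with the replicate number as a block had 1 (beside 2171). In each of these fits the gene was Scn4b, with a log2 fold change of −1.35. The median log2 fold change of the 8 genes was 0.09, beside 0.06 for all genes tested, and 0.04 without Bahd1-KO replicate 3, beside −0.01.

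How large a genotype difference could have gone unseen is given by the 95% intervals of the fit. In all 6 embryos they were wide, from −2.07 to 1.22 on the log2 scale for Scn3a, from −0.36 to 1.97 for Scn1a and from −0.81 to 6.96 for Scn4b. Without Bahd1-KO replicate 3, the interval was −0.52 to 0.64 for Scn3a and −0.63 to 0.85 for Scn1a. Over the 7 genes other than Scn4b, the narrower intervals lay between −0.70 and 0.92. Differences of 2-fold in either direction were thus outside them, whereas for Scn4b the interval ran from −3.02 to 0.35.

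**Figure D3:**
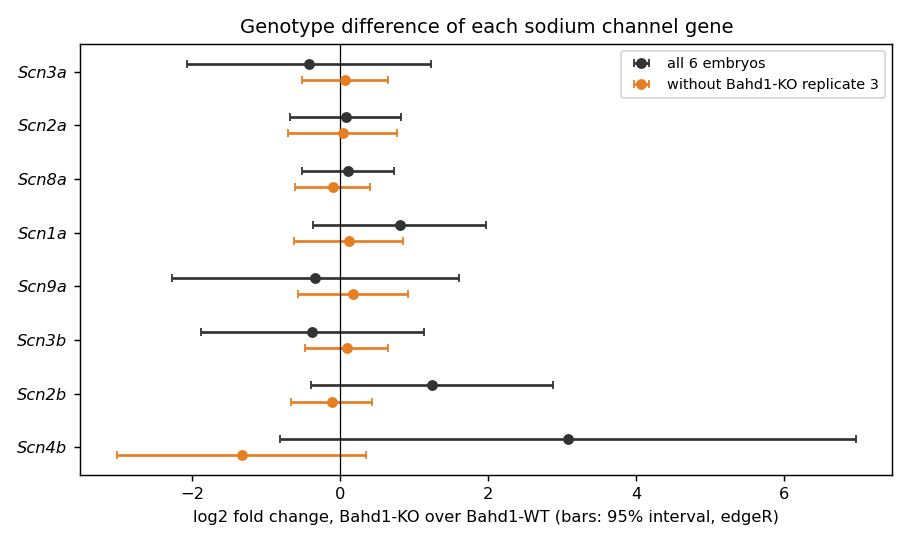
Log2 fold change of Bahd1-KO over Bahd1-WT (horizontal axis) for each of the 8 genes, over all 6 embryos (black) and without Bahd1-KO replicate 3 (orange). Bars are 95% intervals derived from the edgeR test statistic. Every interval includes 0, and leaving out that embryo moves Scn4b from 3.07 to −1.33 and Scn3a from −0.43 to 0.06.

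Bahd1-KO replicate 3 was the lowest of the 6 embryos and at least 2-fold below the mean of the other 5 for 3 of the 8 genes, Scn3a, Scn3b and Scn9a. Among 14368 genes with a mean of at least 1 CPM in those 5, 25.7% did the same. It was the highest and at least 2-fold above for another 3, Scn1a, Scn2b and Scn4b, against 15.3% of those genes. Shifts of this size were therefore common in that library, and the counts of the sodium channel genes are a description of 1 library with no test. The low genes included the fetal Scn3a and the high genes the later Scn1a, in the library with low newborn and high mature neuron markers. Whether the cell make-up or the composition of that library played a part was not tested.

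Among the 5 other embryos, 4 alpha genes varied in a similar order, which is described here with no test. Scn1a, Scn2a and Scn3a had the same order from high to low: Bahd1-WT replicate 1, Bahd1-KO replicate 1, Bahd1-WT replicate 2, Bahd1-KO replicate 2 and Bahd1-WT replicate 3. Scn9a had the same highest pair and the same lowest embryo, and Scn3b shared the whole order. The highest embryo exceeded the lowest by 2.07 times for Scn1a, 2.14 times for Scn2a, 2.04 times for Scn9a and 1.61 times for both Scn3a and Scn3b. Scn8a and Scn2b varied less, by 1.44 and 1.35 times. Neither genotype was uniformly high or low in this order. Kcna1, a marker of mature neurons, had the same order, so the order is not particular to sodium channel genes. The share of all genes with this order is not given.

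The genes whose pattern over the 6 embryos was most like that of Scn3a were Slc35f1, Zkscan2 and Fam78b. Their centred log2 levels differed from those of Scn3a by a root mean square of 0.03, 0.08 and 0.10 over 6 embryos. Scn3b ranked 15 and Scn9a ranked 56 among 13506 genes compared by this measure, at 0.16 and 0.22. For Scn1a the nearest genes were Slc4a4, Dock10 and F8, at 0.07, 0.09 and 0.09. For Scn4b they were Mog, Etnppl and S100b. Since Bahd1-KO replicate 3 carried most of the spread of these genes, the measure mainly ranked genes by their level in that embryo.

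The remaining genes of the sodium channel system were taken from 4 lists, and 0 of them were called between genotypes (background 0.00404%). The first list held 10 other sodium channel genes, including the sodium leak channel Nalcn and its partners. At an unadjusted p under 0.05, 1 of 10 passed (background 4.67%). This was Scn7a, an atypical alpha gene that neighbours Scn9a and is known from glia and peripheral tissue including lung. It was at 0.458, 0.805 and 534 CPM in Bahd1-KO and at 1.14, 0.635 and 0.584 CPM in Bahd1-WT, so its log2 fold change of 7.82 (edgeR adjusted p = 0.696) came from Bahd1-KO replicate 3, the library with high lung markers, and was −0.31 without it. The part of lung RNA in this value was not tested. Unc80, a scaffold of the leak channel, was at 173 CPM in that embryo and at 22.5 to 47.8 CPM in the others. Its log2 fold change was 1.18 (edgeR adjusted p = 0.696), and −0.08 without that embryo.

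The second list held 10 genes that anchor sodium channels at the axon initial segment and the node or adhere there. All 10 had negative log2 fold changes, with a median of −0.38, and −0.24 without Bahd1-KO replicate 3, and 0 of 10 were called. The medians of all genes tested were 0.06 and −0.01. Some of the 10 were near 0, with Sptbn1 at −0.007, Tnr at −0.05 and Cntn1 at −0.11. The share of all genes with a negative value is not given, so the common sign is a description only. The values farthest from 0 were those of L1cam at −0.97, Cntn2 at −0.90 and Nfasc at −0.71, each with an adjusted p of 0.696 in edgeR. Without Bahd1-KO replicate 3 they were −0.49, −0.43 and −0.43. L1cam, an axonal adhesion molecule, was at 224, 283 and 34.6 CPM in Bahd1-KO and at 301, 446 and 312 CPM in Bahd1-WT. It was the 1 gene among these lists whose genotypes did not overlap, against 6.71% of all genes. In Bahd1-KO replicate 3, 4 of the 10 were lowest and at least 2-fold below the others, beside 25.7% of all genes, and none was 2-fold highest, although Sptbn1 was the highest there at 1.36 times the others.

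The third list held 11 modulators of channel gating and turnover, with 0 of 11 called and a median log2 fold change of −0.16, which turned to 0.03 without Bahd1-KO replicate 3. Calm3, a calmodulin gene, had a log2 fold change of −0.64, and −0.43 without that embryo. For Fgf12, an intracellular fibroblast growth factor homologue that binds the channel, it was 0.39, and 0.26 without that embryo. The fourth list held 8 regulators of splicing or repression of channel genes, with 0 of 8 called and a median of −0.25, and −0.05 without Bahd1-KO replicate 3. Nova2, a neuronal splicing factor, had a log2 fold change of −0.85 and Rbfox2, another splicing factor, −0.52, which became −0.39 and −0.12 without that library. Rest, the repressor that silences neuronal genes including sodium channel genes outside neurons, had 0.83, and 0.11 without it. Its level was 77.2 CPM in Bahd1-KO replicate 3 and 22.9 to 29.4 CPM in the other 5, the embryos of both genotypes being alike apart from that library.

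**Figure D4:**
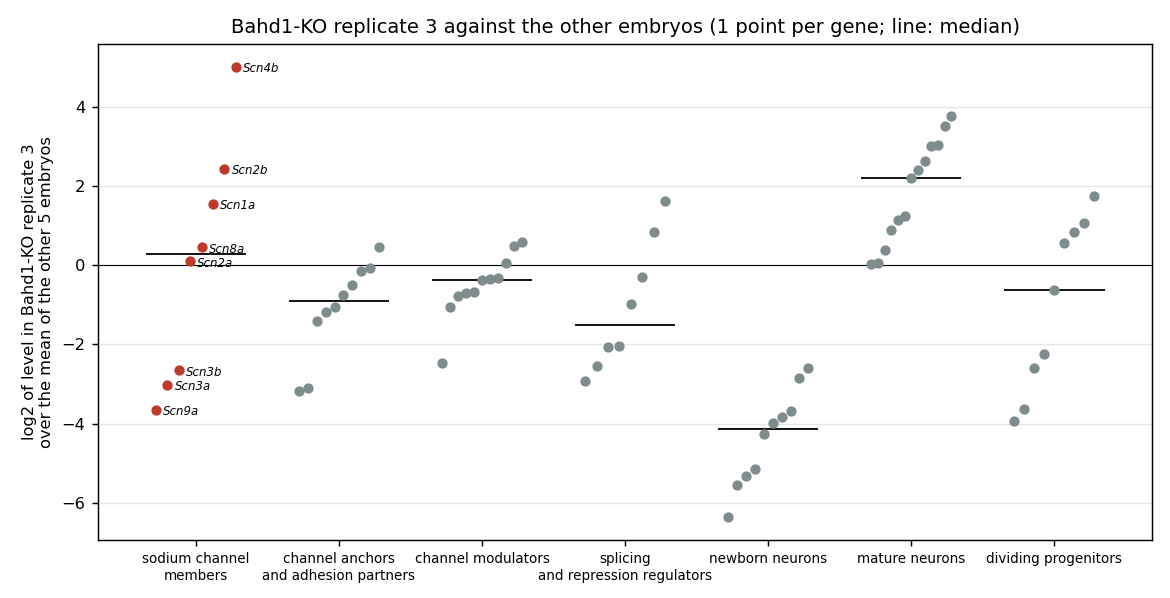
Log2 of the level in Bahd1-KO replicate 3 over the mean of the other 5 embryos (vertical axis), 1 point per gene with a mean of at least 1 CPM in those 5, for the 8 sodium channel genes (red, named), 3 lists of genes that act on them and 3 lists of cell markers, with a line at each median. The sodium channel genes spread from −3.66 for Scn9a to 5.01 for Scn4b, while all newborn neuron markers lie below 0 around a median of −4.13 and mature neuron markers have a median of 2.19.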

How the data were processed

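RNA-seq libraries of 6 embryonic brains were analysed. As the study describes, the authors selected RNA with poly(A) tails, built stranded TruSeq libraries and counted reads over the exons of Ensembl genes of GRCm38 in strand-specific mode. The submitters' processing notes name cutadapt 1.11, STAR 2.5.0a and featureCounts 1.4.6-p3, and the study also names TopHat2, so which aligner made the table is not given in the sources used here. The deposited values were unnormalized and unfiltered read counts, with each embryo in its own column. Groups and replicate numbers came from the sample titles.

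Genes with a summed count of at least 10 were tested with the two-sided quasi-likelihood test of edgeR 4.0.16 in R 4.3.3, with TMM scaling and no covariate besides genotype. Benjamini-Hochberg adjustment covered every tested gene, at a threshold of 0.05. CPM is counts per 1000000 of the TMM-scaled library. CPM per kb used the union of annotated exons (GENCODE M21), which matched 99.82% of genes. Libraries held 61724000 to 91782802 counts, so even the least expressed of the 8 genes, Scn4b, had at least 36 counts in every embryo. Likeness was the root mean square difference of centred log2(CPM + 0.5) over 6 embryos among genes with a mean of at least 1 CPM. Promoter sequences came from RefSeq, which matched 6 of the 8 genes.

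The members and gene lists were chosen with earlier results of these data known. The text names the 8 genes, Bahd1, the 3 genes of each list with the largest absolute log2 fold change, any listed gene whose genotypes do not overlap, and the 3 nearest genes by likeness for Scn3a and a few others. A few items that this rule would name are not reported here. The 2-fold rule for Bahd1-KO replicate 3 and the restriction to protein-coding genes were chosen after seeing the data. Alternatives were the count minimum, the scaling, DESeq2 1.42.0, voom of limma 3.58.1 with sample quality weights, the replicate number as a block, ribosomal, mitochondrial and small RNA genes left out, each embryo left out, and other gene lengths.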

Additional observations from a re-analysis of the deposited data

How the results depend on the processing

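None of the 8 sodium channel genes was called under any alternative, with adjusted p-values from 0.241 to 1.00 over their 144 alternative fits, except that DESeq2 gave none for Scn4b over all embryos, where its log2 fold change was 3.12. Of these fits, 119 kept the sign of the log2 fold change and 25 turned it. Bahd1, the deleted gene, was itself called in 11 of its 18 alternative fits and not in 7, all of edgeR, with adjusted p-values up to 0.685. Such fits could hardly have called a sodium channel gene. Leaving out 1 embryo at a time gave log2 fold changes from −0.97 to 0.058 for Scn3a, −0.18 to 0.31 for Scn2a and 0.11 to 1.08 for Scn1a. Scn8a ran from −0.10 to 0.20, Scn9a from −0.93 to 0.17 and Scn3b from −0.77 to 0.084. Scn2b ran from −0.12 to 1.65 and Scn4b from −1.33 to 4.18. The sign turned without Bahd1-KO replicate 3 except for Scn1a and Scn2a. Scn1a kept its sign whichever embryo was left out, and Scn2a turned without Bahd1-WT replicate 3 or Bahd1-KO replicate 1. Scn8a also turned without Bahd1-WT replicate 3. The ranges were −0.31 to 8.41 for Scn7a and −0.075 to 1.53 for Unc80. DESeq2 without Bahd1-KO replicate 3 gave 0.059 for Scn3a, −0.10 for Scn8a, 0.17 for Scn9a, −0.12 for Scn2b, 0.084 for Scn3b, −1.35 for Scn4b, −0.32 for Scn7a and −0.076 for Unc80. Total counts gave −0.11 for Scn2a and −0.13 for Scn8a. Voom with sample quality weights gave −0.10 for Scn8a, 0.20 for Scn9a and −0.19 for Scn4b. The median of all genes was 0.06 with TMM, 0.17 with upper-quartile factors and −0.11 with total counts. Over all genes, 1 was called in the edgeR fit, 8 by DESeq2, 6 by voom, 0 with ribosomal, mitochondrial and small RNA genes left out (1055 at an unadjusted p under 0.05), and 0 to 4 with 1 embryo left out (154 to 4878 at an unadjusted p under 0.05), the 4 being without Bahd1-KO replicate 3, where DESeq2 called 11. The cause was not tested. The share of Scn3a in Bahd1-KO was 20.5 to 36.5% with 1 embryo left out.

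For same-numbered embryos, the correlation of their deviations from the genotype means was 0.22, 0.32 and −0.12 over 14825 genes, against −0.50 to 0.36 for other pairs. Bahd1-KO replicate 3 entered the Bahd1-KO mean, so these correlations cannot decide whether same-numbered embryos were paired. The edgeR fit with a replicate block had 0 calls, and 517 genes at an unadjusted p under 0.05. Without Bahd1-KO replicate 3, these numbers were 4 and 345 with no block, and 16 and 2171 with the block. In that last fit the replicate block gave negative log2 fold changes for all 8 genes, at −0.11 for Scn3a, −0.12 for Scn1a, −0.21 for Scn2a, −0.24 for Scn8a, −0.013 for Scn9a, −0.20 for Scn2b, −0.098 for Scn3b and −1.35 for Scn4b, and −0.48 for Scn7a and −0.31 for Unc80.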
